A study of Mus musculus with 12 samples.

Results

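Collagen chain genes encode the α chains that wind around each other into collagen molecules. They were taken here as every row of the deposited gene table whose symbol consists of Col, a number, the letter a and a number, and 44 of 54352 genes met this rule. By the class of collagen they belong to, 11 were fibrillar (*Col1a1*, *Col1a2*, *Col2a1*, *Col3a1*, *Col5a1*, *Col5a2*, *Col5a3*, *Col11a1*, *Col11a2*, *Col24a1* and *Col27a1*), 6 were basement membrane or type IV (*Col4a1* to *Col4a6*), 6 were type VI (*Col6a1* to *Col6a6*) and 3 were short chain (*Col8a1*, *Col8a2* and *Col10a1*). Another 9 were fibril-associated (FACIT) chains (*Col9a1*, *Col9a2*, *Col9a3*, *Col12a1*, *Col14a1*, *Col16a1*, *Col19a1*, *Col20a1* and *Col22a1*), and the other 9 were *Col7a1*, *Col13a1*, *Col15a1*, *Col17a1*, *Col18a1*, *Col23a1*, *Col25a1*, *Col26a1* and *Col28a1*.

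The RNA came from primary adventitial fibroblasts, which lay down matrix around the muscular wall of a vessel, of WT C57Bl/6 mice labelled as 14 weeks old, while the methods of the study give another age. Pieces of adventitia of the ascending aorta (with the aortic root) and of the descending aorta were plated, and the cells that grew out were passaged and then given either the solute control or TGFβ at 10 ng/mL for 48 h. This made 4 groups of 3 libraries, namely descending control, descending TGFβ, ascending control and ascending TGFβ. The sources used here do not state whether the 3 cultures of a group came from separate animals, so p-values measure the spread between these cultures, which may be technical.

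Fibrillar collagens form the load-bearing fibrils of the aortic adventitia and are secreted with propeptides that are cut off outside the cell. Basement membrane collagens form sheet-like networks, type VI collagen forms beaded microfilaments at the cell surface, FACIT collagens sit on the surface of fibrils, and type VIII collagen is a short chain network former of vessel walls. TGFβ, a growth factor that signals through SMAD transcription factors, is known for raising type I collagen in fibroblasts.

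Promoters of the chains that the comparisons turn on are shown here, because several of these genes lie beside each other, *Col4a1* and *Col4a2* with overlapping promoters, and because SMAD proteins bind the letters CAGAC. Each sequence runs 5′ to 3′ along the gene's own strand, from 250 bases before the RefSeq start site to 50 bases after it (build GRCm38.p6, 300 bases), and capitals mark CAGAC or its reverse complement GTCTG. The promoters of *Col4a1* and *Col4a2* face away from each other and have 78 bases in common.
Col4a1, chr8:11312777-11313076, minus strand: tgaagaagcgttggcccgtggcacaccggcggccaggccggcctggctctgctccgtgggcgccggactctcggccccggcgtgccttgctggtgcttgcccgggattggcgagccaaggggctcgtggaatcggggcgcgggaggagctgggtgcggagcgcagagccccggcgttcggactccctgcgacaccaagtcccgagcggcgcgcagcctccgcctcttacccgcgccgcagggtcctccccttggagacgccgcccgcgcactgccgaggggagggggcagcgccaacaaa
Col4a2, chr8:11312555-11312854, plus strand: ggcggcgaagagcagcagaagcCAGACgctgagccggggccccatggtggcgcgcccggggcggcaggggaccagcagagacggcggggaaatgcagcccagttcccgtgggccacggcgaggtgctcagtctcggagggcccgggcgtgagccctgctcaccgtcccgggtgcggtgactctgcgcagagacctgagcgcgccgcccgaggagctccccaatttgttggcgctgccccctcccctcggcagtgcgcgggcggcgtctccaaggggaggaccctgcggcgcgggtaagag
Col4a4, chr1:82586800-82587099, minus strand: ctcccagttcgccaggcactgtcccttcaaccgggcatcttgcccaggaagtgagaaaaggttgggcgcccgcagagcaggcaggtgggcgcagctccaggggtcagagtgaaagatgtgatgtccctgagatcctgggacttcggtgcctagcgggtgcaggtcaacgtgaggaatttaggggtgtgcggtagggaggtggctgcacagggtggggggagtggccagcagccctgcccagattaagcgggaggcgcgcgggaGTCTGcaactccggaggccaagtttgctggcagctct
Col6a1, chr10:76725995-76726294, minus strand: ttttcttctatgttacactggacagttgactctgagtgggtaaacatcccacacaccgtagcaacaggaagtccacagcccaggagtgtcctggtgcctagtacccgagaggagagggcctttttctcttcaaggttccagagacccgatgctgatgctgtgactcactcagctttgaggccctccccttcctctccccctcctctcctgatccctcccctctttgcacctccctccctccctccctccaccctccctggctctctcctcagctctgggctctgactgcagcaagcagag
Col6a2, chr10:76623581-76623880, minus strand: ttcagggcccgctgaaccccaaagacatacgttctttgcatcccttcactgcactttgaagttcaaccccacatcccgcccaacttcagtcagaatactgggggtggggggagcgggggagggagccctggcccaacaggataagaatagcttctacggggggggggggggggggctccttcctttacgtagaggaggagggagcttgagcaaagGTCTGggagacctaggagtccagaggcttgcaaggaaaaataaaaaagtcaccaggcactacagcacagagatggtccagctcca
Col6a3, chr1:90843922-90844221, minus strand: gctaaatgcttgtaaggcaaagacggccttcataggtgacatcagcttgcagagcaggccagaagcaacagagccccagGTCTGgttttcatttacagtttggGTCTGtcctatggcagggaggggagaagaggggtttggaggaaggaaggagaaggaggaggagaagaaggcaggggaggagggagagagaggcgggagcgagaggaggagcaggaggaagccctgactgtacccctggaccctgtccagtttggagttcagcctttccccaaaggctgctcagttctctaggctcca
Col8a1, chr16:57754688-57754987, minus strand: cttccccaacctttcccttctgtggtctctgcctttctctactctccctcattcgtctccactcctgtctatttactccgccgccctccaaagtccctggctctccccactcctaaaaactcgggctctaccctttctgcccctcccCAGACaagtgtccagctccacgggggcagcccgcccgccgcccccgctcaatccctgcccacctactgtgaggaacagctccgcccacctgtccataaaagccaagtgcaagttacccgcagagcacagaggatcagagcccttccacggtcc
Col28a1, chr6:8192568-8192867, minus strand: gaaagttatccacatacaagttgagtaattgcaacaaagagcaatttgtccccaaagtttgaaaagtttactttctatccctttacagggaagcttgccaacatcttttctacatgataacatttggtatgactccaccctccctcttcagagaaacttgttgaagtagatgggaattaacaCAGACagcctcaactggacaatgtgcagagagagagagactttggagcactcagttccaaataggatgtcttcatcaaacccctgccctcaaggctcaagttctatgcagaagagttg

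RefSeq promoter sequences matched 35 of the 44 genes, with 38 sequences. *Col1a1*, *Col2a1*, *Col4a3*, *Col5a2*, *Col9a3*, *Col12a1*, *Col14a1*, *Col22a1* and *Col26a1* were the 9 others. CAGAC or GTCTG occurred in 20 of the 38 sequences (52.6%), against 49.6% of all 32851 promoters of the same length. These letters stood at 68 bases before the start site in *Col28a1*, at 103 in *Col8a1*, at 228 in *Col4a2*, at 35 in *Col6a2* and at 171 and 147 in *Col6a3*. *Col6a2* and 2 further chains had 2 promoter sequences each, and the other one of *Col6a2*, which spans 76623355 to 76623654, held none of these letters. In *Col4a4* they stood after the start site, and they were not in the windows of *Col4a1* and *Col6a1*. A match of 5 letters is a description of the sequence, not a binding site.

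Chains that assemble together are often encoded side by side. On GRCm38, *Col4a1* and *Col4a2* start 21 bases apart on chromosome 8 and are read in opposite directions. *Col4a3* and *Col4a4* start 72 bases apart on chromosome 1 in the same arrangement, and *Col4a5* and *Col4a6* start 1309 bases apart on chromosome X. *Col3a1* and *Col5a2* face each other end to end on chromosome 1 with 24614 bases between them, and *Col6a1* and *Col6a2* lie on the same strand of chromosome 10 with 85161 bases between them. Shared exon sequence was low for most chains. It was 4.66% of 50-base sequences for *Col4a3*, which overlaps the antisense gene *C430014B12Rik* over 5.65% of its exon bases, and 4.87% for *Col9a3*, which overlaps *Tcfl5*. Since the strand setting of the counting is not given in the sources used here, reads of these overlaps cannot be told apart.

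The libraries held 16250126 to 23892943 counts on genes, and 3 counts, taken as the floor of a library, corresponded to 0.117 to 0.207 normalized CPM (CPM, a gene's counts relative to the library total after TMM scaling). The descending control replicate 3 stood apart. It had 11.02% of its counts on mitochondrial genes against 0.703 to 1.03% in the other 11 libraries, and 15 of the 44 collagen chain genes were at 0 counts in it, against 3 to 8 in the others. Pearson's r of this library with the other descending controls over the collagen chain genes was 0.972 and 0.975, while replicates of all other pairs within a group had 0.998 to 0.999. Tests that rest on this library are therefore given with it and without it for the chains, and "without replicate 3" refers to it. All 7 fibroblast markers looked at (such as *Pdgfra*, *Dcn* and *Lum*) were detected in every group. Their summed normalized CPM was 3137 to 3770 in descending control, 2784 to 2892 in descending TGFβ, 2005 to 2160 in ascending control and 1893 to 1935 in ascending TGFβ libraries, so it was lower with TGFβ and at the ascending site. With TGFβ, 2 rose and 4 fell in ascending fibroblasts, and 0 rose and 3 fell in descending ones (3 and 4 without replicate 3). Over all genes, 55.8% changed at an adjusted p under 0.05 in ascending and 8.07% in descending fibroblasts (52.9% without replicate 3). The part of these fibroblast markers in the collagen results was not tested. Summed over 6 endothelial markers, normalized CPM was 23.9 to 26.8 in descending control and 24.4 to 27.9 in ascending control libraries, against 9.64 to 11.3 in descending TGFβ and 4.85 to 5.72 in ascending TGFβ libraries, and 1 to 3 of the 6 were at or under the floor in every library of a group. The sum was thus lower with TGFβ at both sites. Of the 2 of these markers tested in both, *Tek* fell by 1.51 on the log2 scale in descending (by 1.50 without replicate 3) and by 2.56 in ascending fibroblasts, while *Kdr* had 1.54 (adjusted p = 0.434) and 0.05 (adjusted p = 0.918) and rose by 1.02 in descending fibroblasts without replicate 3. The part of such cells in the collagen results was not tested.

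Together the 44 genes took 2.77, 2.69 and 2.05% of the counts in descending control, 4.19, 4.47 and 4.44% in descending TGFβ, 2.78, 2.86 and 2.78% in ascending control, and 3.62, 3.66 and 3.68% in ascending TGFβ libraries. Here and below, the values of a group are in the order of its replicates 1, 2 and 3. Every TGFβ library lay above every control library, and the TGFβ libraries of the descending site lay above those of the ascending site. To compare genes with each other, normalized CPM was divided by the length of a gene's exons in kilobases, and this is called the level. This length joins the exons of all transcripts. It was 12426 bases for *Col1a2* and 6563 for *Col1a1*, whose longest transcripts have 5348 and 5930. Ranks, shares and the size of a ratio between genes depend on this choice. The change of such a ratio between libraries does not. *Col1a1*, the α1 chain of type I collagen, had the highest level in all 4 groups, with means of 954 (911 without replicate 3) and 2077 in descending fibroblasts without and with TGFβ, and of 839 and 1652 in ascending ones. *Col1a2*, *Col5a2*, *Col3a1*, *Col4a1* and *Col8a1* followed over the 12 libraries, with mean levels of 488, 468, 272, 219 and 218. The order differed between the groups. At the descending site *Col3a1* ranked 6 without and 9 with TGFβ, and at the ascending site 2 and 4, while *Col6a1* ranked 3 and 12 at the first and 9 and 13 at the other. *Col4a1* and *Col8a1*, next to each other in this order, do not differ beyond their spread over the groups. *Col1a1*, *Col1a2* and *Col3a1* made up 49.7 to 56.3% of the summed collagen level in every library.

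**Figure D1:**
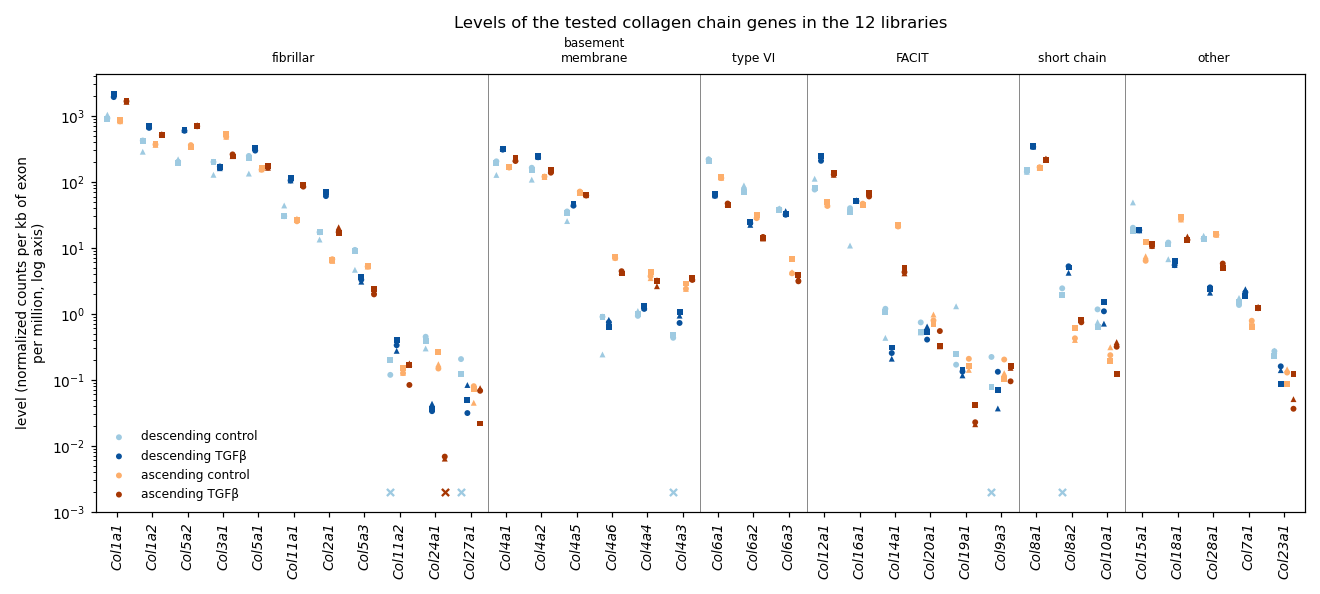
Levels of the 34 collagen chain genes that entered at least 1 test, as normalized CPM per kilobase of exon on a log axis, grouped by class and ordered by mean level. Each point is 1 library (circle, square and triangle for replicates 1, 2 and 3), colours mark the groups, and a cross at the bottom marks a library with 0 counts. *Col1a1* was highest in every group, and descending control replicate 3 gave the crosses of *Col4a3*, *Col8a2*, *Col9a3*, *Col11a2* and *Col27a1*, while the dark cross of *Col24a1* is ascending TGFβ replicate 2.

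At the other end, 10 genes were tested in no comparison because their counts were too low. *Col6a6*, *Col13a1* and *Col26a1* had at most 2 counts in any library, and *Col6a5*, *Col9a1*, *Col22a1* and *Col25a1* at most 5. *Col6a4* reached 8 counts, *Col9a2* reached 10 and *Col17a1* reached 15. These counts are at or near the floor, and differences of these genes between groups were not assessed. *Col9a3* was tested in all comparisons but that of TGFβ in descending fibroblasts, and *Col24a1* in all but that of the sites with TGFβ. The other 32 entered all 5 comparisons.

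The first question was how the collagen chains changed with TGFβ in ascending fibroblasts. Fibrillar *Col11a1*, *Col2a1*, *Col5a2*, *Col1a1* and *Col1a2* rose, with the fibril-associated *Col12a1*. All 3 tested type VI chains fell, as did fibrillar *Col3a1* and the fibril-associated *Col14a1*. Of the 34 tested genes, 14 rose and 14 fell at an adjusted p under 0.05 (DE genes, edgeR's quasi-likelihood test, adjusted over all genes tested), and 6 were not DE. With all 12 libraries in 1 fit, 17 chains were DE, where 2338 of 14637 genes were DE in all. In that fit 11 of the 28 calls were lost, those of *Col4a1* to *Col4a6*, *Col5a1*, *Col6a3*, *Col8a2*, *Col16a1* and *Col19a1*. In the fit of the 6 libraries, 55.8% of all genes were DE, with 28.2% higher and 27.6% lower. The median log2 fold change was -0.02 over the tested collagen chains and -0.0044 over all genes tested. *Col10a1*, *Col11a2*, *Col15a1*, *Col23a1*, *Col9a3* and *Col27a1* were the 6 that were not DE, with log2 fold changes of -0.75 to 0.32.

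In descending fibroblasts, 7 of 33 tested chains rose with TGFβ (*Col2a1*, *Col11a1*, *Col5a2*, *Col12a1*, *Col8a1*, *Col1a1* and *Col1a2*) and 4 fell (*Col24a1*, *Col28a1*, *Col6a1* and *Col6a2*). Over all genes 8.07% were DE, 3.59% higher and 4.48% lower. Without replicate 3, 17 of 34 chains rose and 11 fell, against 52.9% of all genes DE (26.6% higher and 26.3% lower). All 11 chains DE with the library were DE in the same direction without it. The DESeq2 Wald test with all libraries kept called 17 chains and 2531 genes. Beyond the 11 these were *Col4a1*, *Col4a2* and *Col4a5*, which rose, and *Col5a3*, *Col14a1* and *Col18a1*, which fell (adjusted p = 0.00064 to 0.0197). With all others kept, 7 chains were DE by edgeR without descending TGFβ replicate 1 or 2. Over all genes 213 and 216 were DE in these fits, against 1115 with all libraries. *Col1a2* (adjusted p = 0.077 to 0.169) and *Col24a1* (adjusted p = 0.0603 to 0.095) were not DE by edgeR with any 1 of the other 5 libraries left out, and *Col12a1* (adjusted p = 0.0463 to 0.0782) was DE in 1 of these 5 fits and *Col11a1* in 3. The median log2 fold change of the chains was 0.37 with it and 0.32 without it, against 0.02 and -0.01 over all genes tested. The sites were tested in separate libraries. All 11 chains DE in descending fibroblasts were among the 28 DE in ascending fibroblasts, 7 higher and 4 lower in both. Over all genes tested at both sites, 95.2% of those DE in descending fibroblasts were DE in ascending ones too, so such an overlap is not particular to the chains. Without replicate 3, 25 chains were DE at both sites, of which 14 rose at both, 9 fell at both, and *Col4a4* and *Col4a5* rose in descending and fell in ascending fibroblasts. Over all genes, 42.1% were DE at both sites without replicate 3, 21.5% higher at both, 19.4% lower at both and 1.13% in opposite directions.

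**Figure D2:**
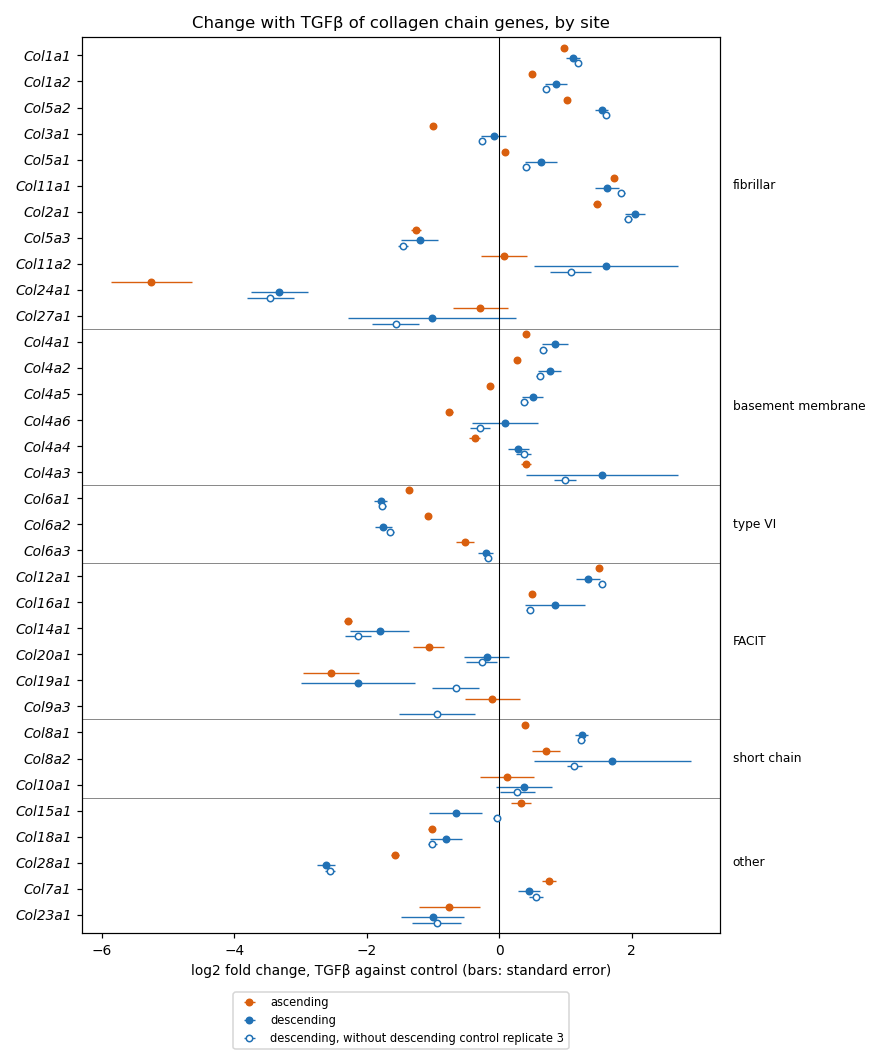
Log2 fold change with TGFβ (horizontal axis, bars are standard errors) of the tested collagen chain genes, by class, in ascending (orange) and descending fibroblasts (blue, open circles without descending control replicate 3). All 3 type VI chains lie to the left of 0 and *Col1a1*, *Col1a2*, *Col5a2*, *Col11a1*, *Col2a1* and *Col12a1* to the right at both sites, and the wide bars of *Col4a3*, *Col8a2* and *Col11a2* become narrow without that library. The ascending point of *Col24a1* rests on 2 counts in the TGFβ group.

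Type I collagen, the main fibril former of the adventitia, is built from the chains of *Col1a1* (chromosome 11, 94936224 to 94953042) and *Col1a2* (chromosome 6, 4504814 to 4541544). Normalized CPM of *Col1a1* was 6009, 5943 and 6839 in descending control and 12644, 14193 and 14048 in descending TGFβ libraries, and 5421, 5638 and 5457 in ascending control and 10918, 10895 and 10708 in ascending TGFβ libraries. All TGFβ libraries were above all control libraries at both sites. Its log2 fold change with TGFβ was 0.97 (standard error 0.02, adjusted p = 1.2e-15) in ascending fibroblasts. In descending fibroblasts it was 1.11 (standard error 0.11, adjusted p = 0.0041) with and 1.19 (standard error 0.05, adjusted p = 1.65e-18) without replicate 3. Normalized CPM of *Col1a2* was 5259, 5205 and 3558 in descending control and 8180.4, 8779.8 and 8577 in descending TGFβ libraries, and 4576, 4659 and 4515 in ascending control and 6364, 6425 and 6609 in ascending TGFβ libraries. Control and TGFβ libraries did not overlap at either site, and descending control replicate 3 was the lowest library. The log2 fold change was 0.49 (standard error 0.02, adjusted p = 1.08e-11) in ascending and 0.86 (standard error 0.17, adjusted p = 0.0354) with and 0.70 (standard error 0.05, adjusted p = 6.53e-14) without replicate 3 in descending fibroblasts.

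*Col3a1*, the chain of type III collagen, which forms thin fibrils with type I, moved the other way in ascending fibroblasts. Normalized CPM of *Col3a1* was 1971, 1972 and 1256 in descending control and 1678, 1671 and 1581 in descending TGFβ libraries, and 4736, 5139 and 4740.3 in ascending control and 2561, 2378 and 2411 in ascending TGFβ libraries. The ascending controls were the highest group and the ascending TGFβ libraries lay between them and all descending libraries. In ascending fibroblasts *Col3a1* fell by 1.00 on the log2 scale (standard error 0.03, adjusted p = 2.11e-13), to 0.501 of the control. In descending fibroblasts, the value with replicate 3, which was the lowest library, was -0.08 (standard error 0.19, adjusted p = 0.831), and *Col3a1* fell by 0.26 (standard error 0.05, adjusted p = 1.92e-05) without it. The ratio of the levels of *Col1a1* and *Col3a1* was 4.56, 4.51 and 8.14 in descending control, 11.3, 12.7 and 13.3 in descending TGFβ, 1.71, 1.64 and 1.72 in ascending control and 6.38, 6.85 and 6.64 in ascending TGFβ libraries. The ratio was higher in every TGFβ library than in any control library of its site, and it was lower in ascending than in descending fibroblasts within each treatment.

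Type V collagen, which sets the width of type I fibrils, is made from *Col5a1*, *Col5a2* and *Col5a3*. Normalized CPM of *Col5a2* was 1935, 1871 and 2108 in descending control and 5699.8, 5849 and 5848 in descending TGFβ libraries, and 3459, 3238 and 3347 in ascending control and 6681, 6839 and 6944 in ascending TGFβ libraries. All TGFβ libraries exceeded all controls, and the ascending libraries exceeded the descending ones within each treatment. *Col5a2* changed by 1.02 (standard error 0.03, adjusted p = 4.27e-15) in ascending and by 1.55 (standard error 0.10, adjusted p = 0.00156) with and 1.61 (standard error 0.05, adjusted p = 2.59e-22) without replicate 3 in descending fibroblasts. Normalized CPM of *Col5a1* was 2099, 1972 and 1133 in descending control and 2527, 2808 and 2769 in descending TGFβ libraries, and 1297, 1363 and 1319.5 in ascending control and 1401, 1465 and 1387 in ascending TGFβ libraries. The ascending control and TGFβ libraries lay close together, and descending control replicate 3 was the lowest of all. *Col5a1* rose by 0.09 (standard error 0.03, adjusted p = 0.0134) in ascending fibroblasts, a call lost by edgeR without ascending control replicate 1 or ascending TGFβ replicate 2 (adjusted p up to 0.0665), while in descending fibroblasts its value was 0.63 (standard error 0.24, adjusted p = 0.183) with and 0.41 (standard error 0.05, adjusted p = 4.65e-08) without replicate 3. *Col5a3* fell in ascending fibroblasts, by 1.26 on the log2 scale, and in descending fibroblasts its log2 fold change was -1.20 (standard error 0.28, adjusted p = 0.0569) with and -1.45 (standard error 0.07, adjusted p = 2.51e-16) without replicate 3. The ratio of the levels of *Col5a1* and *Col5a2* was 1.23, 1.19 and 0.607 in descending control and 0.501, 0.542 and 0.535 in descending TGFβ libraries. It was 0.423, 0.476 and 0.445 in ascending control and 0.237, 0.242 and 0.226 in ascending TGFβ libraries, so the ratio was lowest in ascending TGFβ.

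*Col11a1* and *Col2a1* encode fibrillar chains best known from cartilage. Normalized CPM of *Col11a1* was 385, 383 and 559 in descending control and 1338, 1448 and 1340.0 in descending TGFβ libraries, and 322, 339 and 353 in ascending control and 1079, 1146 and 1144 in ascending TGFβ libraries. Every TGFβ library was above every control library. The log2 fold change of *Col11a1* was 1.73 (standard error 0.04, adjusted p = 3.98e-16) in ascending and 1.63 (standard error 0.19, adjusted p = 0.00664) with and 1.84 (standard error 0.05, adjusted p = 7.83e-23) without replicate 3 in descending fibroblasts. Normalized CPM of *Col2a1* was 159, 161 and 123 in descending control and 563, 642 and 641 in descending TGFβ libraries, and 62.1, 60.1 and 58.5 in ascending control and 159.7, 156 and 189.6 in ascending TGFβ libraries. The descending TGFβ libraries were the highest and the ascending controls the lowest, and the ascending TGFβ libraries overlapped the descending controls. *Col2a1* rose by 1.48 (standard error 0.06, adjusted p = 2.87e-12) in ascending and by 2.05 (standard error 0.15, adjusted p = 0.0018) with and 1.94 (standard error 0.06, adjusted p = 4.48e-22) without replicate 3 in descending fibroblasts. Of 7 other chondrocyte markers, 4 to 6 were at 0 counts in every library of a group, among them *Matn1*, *Cnmd* and *Snorc* in all groups. Their summed normalized CPM was 2.77 to 6.69 in descending control, 4.39 to 5.81 in descending TGFβ, 3.51 to 4.94 in ascending control and 9.97 to 13.2 in ascending TGFβ libraries. *Acan*, which encodes the cartilage proteoglycan aggrecan, was at 0 in the descending controls and at 1.77, 4.11 and 4.72 in ascending TGFβ libraries. Their part in the *Col2a1* result was not tested.

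The remaining fibrillar chains were low. *Col24a1* had 88, 69 and 33 counts in descending control and 5, 5 and 7 in descending TGFβ libraries, and 26, 40 and 27 in ascending control against 1, 0 and 1 in ascending TGFβ libraries. It fell at both sites, and in descending fibroblasts the log2 fold change was -3.32 (standard error 0.43, adjusted p = 0.01) with and -3.46 (standard error 0.35, adjusted p = 1.09e-09) without replicate 3. Its counts with TGFβ were too low for the filter on low counts, which it passed through its control libraries only. The 93 counts of the ascending controls stood against 2 with TGFβ, a ratio of 44.5 after scaling with an exact counting interval of 12.0 to 373, which covers counting error only. *Col11a2* had 11 to 51 counts in every library but descending control replicate 3, where it was at 0, and its log2 fold change in descending fibroblasts was 1.61 (standard error 1.09, adjusted p = 0.426) with and 1.08 (standard error 0.31, adjusted p = 0.00407) without replicate 3. *Col27a1* was at 0 in the same library, and its value was -1.01 (standard error 1.27, adjusted p = 0.678) with and -1.57 (standard error 0.36, adjusted p = 0.000545) without replicate 3.

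Summed over the class, the fibrillar level was 2046, 2009.8 and 1872 in descending control and 3817, 4167 and 4106 in descending TGFβ libraries. It was 2228, 2295 and 2222 in ascending control and 3402, 3414 and 3409 in ascending TGFβ libraries. These sums are descriptions with no test. Fibrillar chains made up 66.0 to 66.6% of the summed collagen level in descending control, 74.0 to 74.8% in descending TGFβ, 72.3 to 72.6% in ascending control and 77.9 to 78.6% in ascending TGFβ libraries. The share was higher with TGFβ at both sites, and the ascending controls lay between the descending controls and the descending TGFβ libraries.

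**Figure D3:**
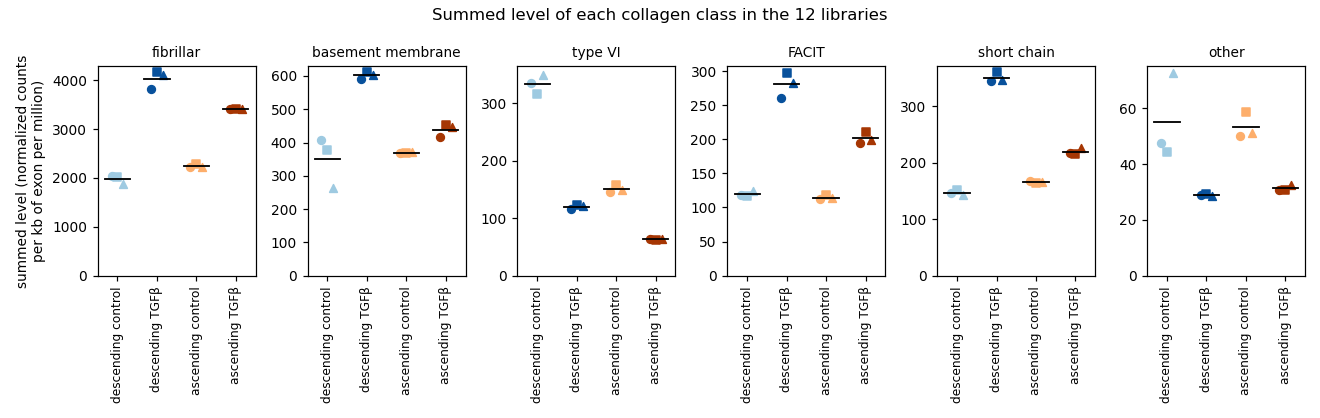
Summed level of each collagen class (normalized CPM per kilobase of exon) in the 12 libraries. Points are libraries (circle, square and triangle for replicates 1, 2 and 3) and lines are group means over 3 libraries. The type VI sum was lower with TGFβ at both sites, while the fibrillar, FACIT and short chain sums were higher.

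All 3 type VI chains with enough counts fell with TGFβ in ascending fibroblasts by edgeR. *Col6a1* and *Col6a2* also fell in descending fibroblasts, and by edgeR *Col6a3* was DE there without replicate 3 and not with it. With all libraries kept, limma voom with sample quality weights gave *Col6a3* -0.17 (standard error 0.06, adjusted p = 0.0179). These weights can lower the part of a library that stands apart. In ascending fibroblasts the DESeq2 Wald test did not call *Col6a3*, at -0.53 (standard error 0.25, adjusted p = 0.0703). Normalized CPM of *Col6a1* was 961, 916 and 971 in descending control and 268, 285 and 274 in descending TGFβ libraries, and 499.7, 526 and 505 in ascending control and 206, 193 and 202 in ascending TGFβ libraries. All TGFβ libraries were below all controls, and the descending controls were the highest group. *Col6a1* changed by -1.36 (standard error 0.03, adjusted p = 4.57e-15) in ascending and by -1.79 (standard error 0.10, adjusted p = 0.00112) with and -1.76 (standard error 0.05, adjusted p = 4.07e-23) without replicate 3 in descending fibroblasts. Normalized CPM of *Col6a2* was 641, 587 and 736 in descending control and 197, 204 and 186 in descending TGFβ libraries, and 235, 264 and 247 in ascending control and 122, 116 and 115 in ascending TGFβ libraries. Again every TGFβ library was below every control library, and the descending controls were highest. Its change was -1.08 (standard error 0.04, adjusted p = 1.84e-12) in ascending and -1.75 (standard error 0.13, adjusted p = 0.00197) with and -1.65 (standard error 0.05, adjusted p = 1.63e-21) without replicate 3 in descending fibroblasts. Normalized CPM of *Col6a3* was 461, 443 and 475 in descending control and 379.5, 391 and 431 in descending TGFβ libraries, and 49.2, 79.8 and 51.2 in ascending control and 37.2, 46.2 and 42.1 in ascending TGFβ libraries. Every descending library was far above every ascending library, and the TGFβ and control ranges did not overlap at either site. *Col6a3* changed by -0.52 (standard error 0.14, adjusted p = 0.00361) in ascending fibroblasts, and by -0.26 (standard error 0.07, adjusted p = 0.00184) without ascending control replicate 2. In descending fibroblasts the change was -0.21 (standard error 0.11, adjusted p = 0.317) with and -0.17 (standard error 0.05, adjusted p = 0.00701) without replicate 3. Among the ascending controls, replicate 2 had the highest *Col6a3*, and it also had the highest *Lyz2*, a macrophage gene, with 38.8, 291 and 42.4 normalized CPM in replicates 1, 2 and 3. The part of such cells in this value was not tested.

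Type VI molecules need the products of *Col6a1*, *Col6a2* and a further chain such as that of *Col6a3*. The level of *Col6a3* relative to *Col6a1* was 0.176, 0.177 and 0.179 in descending control and 0.518, 0.503 and 0.576 in descending TGFβ libraries. In ascending fibroblasts it was 0.0361, 0.0556 and 0.0371 in control and 0.0662, 0.0879 and 0.0764 in TGFβ libraries. The ratio was higher with TGFβ at both sites, and all descending libraries were above all ascending ones. The ratio of *Col6a1* to *Col6a2*, whose genes are neighbours, moved less, with 2.51 to 2.97 in descending control, 2.59 to 2.81 in descending TGFβ, 3.78 to 4.05 in ascending control and 3.15 to 3.33 in ascending TGFβ libraries. Type VI chains made up 10.8, 10.5 and 12.4% of the summed collagen level in descending control and 2.26, 2.19 and 2.20% in descending TGFβ libraries. The share was 4.76, 5.01 and 4.86% in ascending control and 1.50, 1.41 and 1.45% in ascending TGFβ libraries.

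Of the basement membrane chains, *Col4a1* and *Col4a2*, which form the common type IV network, were the most abundant. Normalized CPM of *Col4a1* was 1528, 1432 and 951 in descending control and 2296, 2374 and 2369 in descending TGFβ libraries, and 1229, 1244 and 1253 in ascending control and 1545, 1696 and 1684 in ascending TGFβ libraries. All TGFβ libraries were above all controls, the lowest ascending TGFβ library only just above the highest descending control. *Col4a1* rose by 0.40 (standard error 0.03, adjusted p = 1.47e-08) in ascending fibroblasts, and its value in descending fibroblasts was 0.84 (standard error 0.19, adjusted p = 0.0531) with and 0.67 (standard error 0.05, adjusted p = 5.2e-13) without replicate 3. Normalized CPM of *Col4a2* was 1083, 996 and 715 in descending control and 1563, 1614 and 1574 in descending TGFβ libraries, and 794, 784 and 799 in ascending control and 911, 991 and 969 in ascending TGFβ libraries. The ascending TGFβ libraries overlapped the descending controls, and descending control replicate 3 was the lowest library of both genes. *Col4a2* rose by 0.27 (standard error 0.03, adjusted p = 1.2e-06) in ascending fibroblasts, and its value in descending fibroblasts was 0.76 (standard error 0.17, adjusted p = 0.0519) with and 0.61 (standard error 0.05, adjusted p = 6.86e-12) without replicate 3. The ratio of their levels stayed within 1.18 to 1.54 over the 12 libraries, with group means of 1.24 (1.26 without replicate 3) and 1.31 in descending control and TGFβ cultures, and 1.39 and 1.52 in ascending ones.

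The minor type IV chains form the networks of specialised basement membranes. Normalized CPM of *Col4a5* was 239, 230.1 and 171 in descending control and 293, 312 and 309 in descending TGFβ libraries, and 479, 457 and 466 in ascending control and 417, 432 and 423 in ascending TGFβ libraries. Ascending libraries were above all descending ones, the TGFβ libraries of the descending site were above their controls, and those of the ascending site were below theirs. *Col4a5* fell by 0.15 in ascending fibroblasts (standard error 0.03, adjusted p = 0.000442), and in descending fibroblasts its value was 0.51 (standard error 0.15, adjusted p = 0.115) with and 0.38 (standard error 0.05, adjusted p = 2.03e-07) without replicate 3. Normalized CPM of *Col4a6* was 7.20, 7.15 and 1.93 in descending control and 5.92, 5.04 and 6.47 in descending TGFβ libraries, and 55.6, 59.0 and 57.1 in ascending control and 35.3, 32.6 and 34.5 in ascending TGFβ libraries. *Col4a6* fell in ascending fibroblasts by 0.75 (standard error 0.05, adjusted p = 1.95e-09), where control and TGFβ libraries did not overlap. In descending fibroblasts its value was 0.09 (standard error 0.50, adjusted p = 0.935) with and -0.30 (standard error 0.15, adjusted p = 0.101) without replicate 3.

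Normalized CPM of *Col4a4* was 9.88, 10.7 and 11.7 in descending control and 12.6, 13.8 and 13.2 in descending TGFβ libraries, and 39.4, 45.7 and 36.9 in ascending control and 33.7, 33.0 and 27.8 in ascending TGFβ libraries. The descending libraries were all below the ascending ones. *Col4a4* changed by -0.37 (standard error 0.08, adjusted p = 0.000905) in ascending and by 0.29 (standard error 0.16, adjusted p = 0.327) with and 0.37 (standard error 0.11, adjusted p = 0.00783) without replicate 3 in descending fibroblasts. Normalized CPM of *Col4a3* was 4.32, 4.81 and 0 in descending control and 7.24, 10.7 and 9.36 in descending TGFβ libraries, and 23.9, 28.7 and 23.8 in ascending control and 32.5, 35.0 and 33.5 in ascending TGFβ libraries. It was at 0 in descending control replicate 3, which had a floor of 0.207 normalized CPM. *Col4a3* changed by 0.40 (standard error 0.07, adjusted p = 0.000147) in ascending fibroblasts and by 1.55 (standard error 1.14, adjusted p = 0.465) with and 1.00 (standard error 0.16, adjusted p = 6.57e-06) without replicate 3 in descending fibroblasts. Although *Col4a3* and *Col4a4* start 72 bases apart, the first rose and the second fell in ascending fibroblasts, and the ratio of their levels was 0.646, 0.669 and 0.688 in ascending control and 1.03, 1.13 and 1.28 in ascending TGFβ libraries.

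The FACIT class held both a strong rise and a strong fall. Normalized CPM of *Col12a1* was 1165, 1211 and 1699.5 in descending control and 3175, 3738 and 3486 in descending TGFβ libraries, and 657, 765 and 694 in ascending control and 1967, 2106 and 1951 in ascending TGFβ libraries. All TGFβ libraries were above all controls, and descending libraries were above ascending ones within each treatment. *Col12a1*, whose chain coats type I fibrils and is abundant in tendon, rose by 1.50 (standard error 0.04, adjusted p = 3.57e-14) in ascending and by 1.34 (standard error 0.18, adjusted p = 0.0113) with and 1.55 (standard error 0.06, adjusted p = 3.88e-20) without replicate 3 in descending fibroblasts. Normalized CPM of *Col14a1* was 8.36, 7.46 and 3.03 in descending control and 1.79, 2.17 and 1.46 in descending TGFβ libraries, and 148, 154 and 153 in ascending control and 30.1, 34.9 and 28.8 in ascending TGFβ libraries. Ascending controls were the highest, ascending TGFβ libraries came next, and no descending library exceeded 8.36 normalized CPM. *Col14a1*, a chain of mature interstitial fibrils, fell by 2.28 on the log2 scale in ascending fibroblasts (standard error 0.06, adjusted p = 4.93e-15). In descending fibroblasts its value was -1.81 (standard error 0.45, adjusted p = 0.0682) with and -2.14 (standard error 0.19, adjusted p = 1.1e-10) without replicate 3. Normalized CPM of *Col16a1* was 269, 237 and 73.1 in descending control and 345, 344 and 356 in descending TGFβ libraries, and 315, 299 and 305 in ascending control and 405, 454 and 445 in ascending TGFβ libraries. Descending control replicate 3 was the lowest library by far. *Col16a1* rose by 0.50 (standard error 0.04, adjusted p = 9.19e-09) in ascending fibroblasts, and its value in descending fibroblasts was 0.84 (standard error 0.46, adjusted p = 0.329) with and 0.46 (standard error 0.05, adjusted p = 1.94e-08) without replicate 3.

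*Col19a1*, a low FACIT chain, had 33, 22 and 20 counts in ascending control and 3, 6 and 3 in ascending TGFβ libraries, of which 2 were at the floor. It fell in ascending fibroblasts, where the log2 change was -2.54 (standard error 0.42, adjusted p = 7.55e-05). There it passed the filter on low counts through the control libraries only. In descending fibroblasts it had 30, 39 and 130 counts in control and 18, 18 and 17 with TGFβ, the highest value being that of replicate 3. The log2 fold change was -2.13 (standard error 0.86, adjusted p = 0.208) with and -0.66 (standard error 0.35, adjusted p = 0.12) without replicate 3. *Col20a1* fell in ascending fibroblasts, by 1.06 on the log2 scale, and its value in descending fibroblasts was -0.19 (standard error 0.34, adjusted p = 0.778) with and -0.26 (standard error 0.23, adjusted p = 0.357) without replicate 3.

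Among the short chain collagens, *Col8a1* and *Col8a2* encode the chains of type VIII collagen of vessel walls and *Col10a1* that of type X, known from growth plate cartilage. Normalized CPM of *Col8a1* was 1114, 1172 and 1116 in descending control and 2656, 2769 and 2673 in descending TGFβ libraries, and 1305, 1287 and 1299 in ascending control and 1697, 1677 and 1767 in ascending TGFβ libraries. The ascending controls lay just above the descending controls, all TGFβ libraries were above all controls, and the descending TGFβ libraries were far above the ascending TGFβ libraries. *Col8a1* changed by 0.40 (standard error 0.03, adjusted p = 1.1e-09) in ascending and by 1.24 (standard error 0.09, adjusted p = 0.00197) with and 1.24 (standard error 0.05, adjusted p = 1.94e-19) without replicate 3 in descending fibroblasts. Normalized CPM of *Col8a2* was 10.9, 8.71 and 0 in descending control and 23.6, 22.6 and 18.8 in descending TGFβ libraries, and 1.91, 2.75 and 1.80 in ascending control and 3.34, 3.59 and 3.60 in ascending TGFβ libraries. Replicate 3 of the descending controls was at 0, and all other descending libraries were above all ascending ones. *Col8a2* rose by 0.70 (standard error 0.21, adjusted p = 0.0104) in ascending fibroblasts, and its value in descending fibroblasts was 1.71 (standard error 1.19, adjusted p = 0.44) with and 1.14 (standard error 0.12, adjusted p = 1.48e-09) without replicate 3. Normalized CPM of *Col10a1* was 3.66, 1.99 and 2.34 in descending control and 3.42, 4.77 and 2.22 in descending TGFβ libraries, and 0.739, 0.599 and 0.974 in ascending control and 0.992, 0.378 and 1.17 in ascending TGFβ libraries. The control and TGFβ ranges of *Col10a1* overlapped at both sites. Its values were 0.12 (standard error 0.40, adjusted p = 0.822) in ascending and 0.37 (standard error 0.42, adjusted p = 0.649) with and 0.27 (standard error 0.26, adjusted p = 0.41) without replicate 3 in descending fibroblasts.

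Of the other chains, *Col28a1* and *Col18a1* fell and *Col7a1*, the anchoring fibril chain of skin, rose with TGFβ in ascending fibroblasts. Normalized CPM of *Col28a1* was 67.4, 66.9 and 74.8 in descending control and 12.3, 11.7 and 10.3 in descending TGFβ libraries, and 77.2, 80.1 and 77.5 in ascending control and 28.3, 24.0 and 26.9 in ascending TGFβ libraries. All TGFβ libraries were below all controls, and the descending TGFβ libraries were the lowest. *Col28a1*, a von Willebrand factor A domain collagen known from peripheral nerve, changed by -1.57 (standard error 0.06, adjusted p = 5.72e-13) in ascending and by -2.62 (standard error 0.14, adjusted p = 0.000946) with and -2.55 (standard error 0.08, adjusted p = 1.65e-21) without replicate 3 in descending fibroblasts. Normalized CPM of *Col18a1* was 84.5, 79.0 and 47.2 in descending control and 38.4, 44.6 and 38.6 in descending TGFβ libraries, and 190.2, 205 and 189 in ascending control and 92.2, 92.4 and 104 in ascending TGFβ libraries. At each site all TGFβ libraries were below all controls. *Col18a1*, whose chain carries the endostatin fragment, fell by 1.02 in ascending fibroblasts (standard error 0.05, adjusted p = 1.68e-11). Its value in descending fibroblasts was -0.80 (standard error 0.24, adjusted p = 0.107) with and -1.01 (standard error 0.07, adjusted p = 1.23e-13) without replicate 3. Normalized CPM of *Col15a1* was 128, 113 and 309.9 in descending control and 117, 117 and 117 in descending TGFβ libraries, and 40.4, 77.7 and 47.4 in ascending control and 67.4, 71.5 and 68.1 in ascending TGFβ libraries. *Col15a1*, the related type XV chain, was highest in descending control replicate 3, and the other descending libraries lay close together. Its values were 0.32 (standard error 0.15, adjusted p = 0.0813) in ascending and -0.66 (standard error 0.40, adjusted p = 0.381) with and -0.04 (standard error 0.06, adjusted p = 0.572) without replicate 3 in descending fibroblasts. In ascending fibroblasts *Col15a1* was DE without ascending control replicate 2, at 0.65 (standard error 0.06, adjusted p = 3.3e-10), and by limma voom with sample quality weights, at 0.42 (standard error 0.13, adjusted p = 0.012). Normalized CPM of *Col7a1* was 14.0, 15.7 and 17.9 in descending control and 21.7, 19.2 and 24.3 in descending TGFβ libraries, and 8.08, 6.54 and 8.03 in ascending control and 12.5, 12.7 and 13.1 in ascending TGFβ libraries. Control and TGFβ libraries did not overlap at either site. The *Col7a1* value was 0.75 (standard error 0.11, adjusted p = 1.91e-05) in ascending and 0.45 (standard error 0.17, adjusted p = 0.186) with and 0.56 (standard error 0.10, adjusted p = 3.54e-05) without replicate 3 in descending fibroblasts. For *Col23a1*, a transmembrane collagen at no more than 1.59 normalized CPM in any library, the value in descending fibroblasts was -1.01 (standard error 0.47, adjusted p = 0.269) with and -0.94 (standard error 0.37, adjusted p = 0.0332) without replicate 3. In ascending fibroblasts it was -0.75 (standard error 0.46, adjusted p = 0.18), and -1.44 (standard error 0.54, adjusted p = 0.0391) without ascending TGFβ replicate 2.

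The second question was which chains differed between the sites. In control cultures, *Col14a1*, *Col4a6*, *Col4a4*, *Col3a1*, *Col18a1*, *Col4a5* and *Col5a2* were higher in ascending fibroblasts, and *Col6a3*, *Col6a2*, *Col2a1*, *Col7a1* and *Col6a1* were higher in descending fibroblasts. This made 7 and 5 of 34 tested chains, against 2.65% of all genes DE (1.19% higher and 1.47% lower in ascending). Without replicate 3, 11 chains were higher and 19 lower in ascending fibroblasts, against 31.6% of all genes DE (16.4% and 15.2%), and all 12 chains DE with the library were among them in the same direction. This count depended on single libraries, as did that of all genes, which was 374 with all libraries kept. The count of chains was 0 without ascending control replicate 1 or 3 (33 genes each) and 1 without ascending control replicate 2 (43 genes). It was 4 without descending control replicate 1 or 2 (108 and 77 genes). Where it was 0 by edgeR, 1061 and 1062 genes had an unadjusted p under 0.05. With TGFβ, 10 of 33 chains were higher and 19 lower in ascending fibroblasts, against 36.3% of all genes DE (18.1% and 18.2%). With all 12 libraries in 1 fit, 7 chains were higher and 12 lower, where 1106 of 14637 genes were DE in all. In that fit 11 of the 29 calls were lost. The median log2 difference of the chains was -0.20 in control, -0.23 in control without replicate 3 and -0.46 with TGFβ, while over all genes it was 0.04, -0.0011 and 0.0024.

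**Figure D4:**
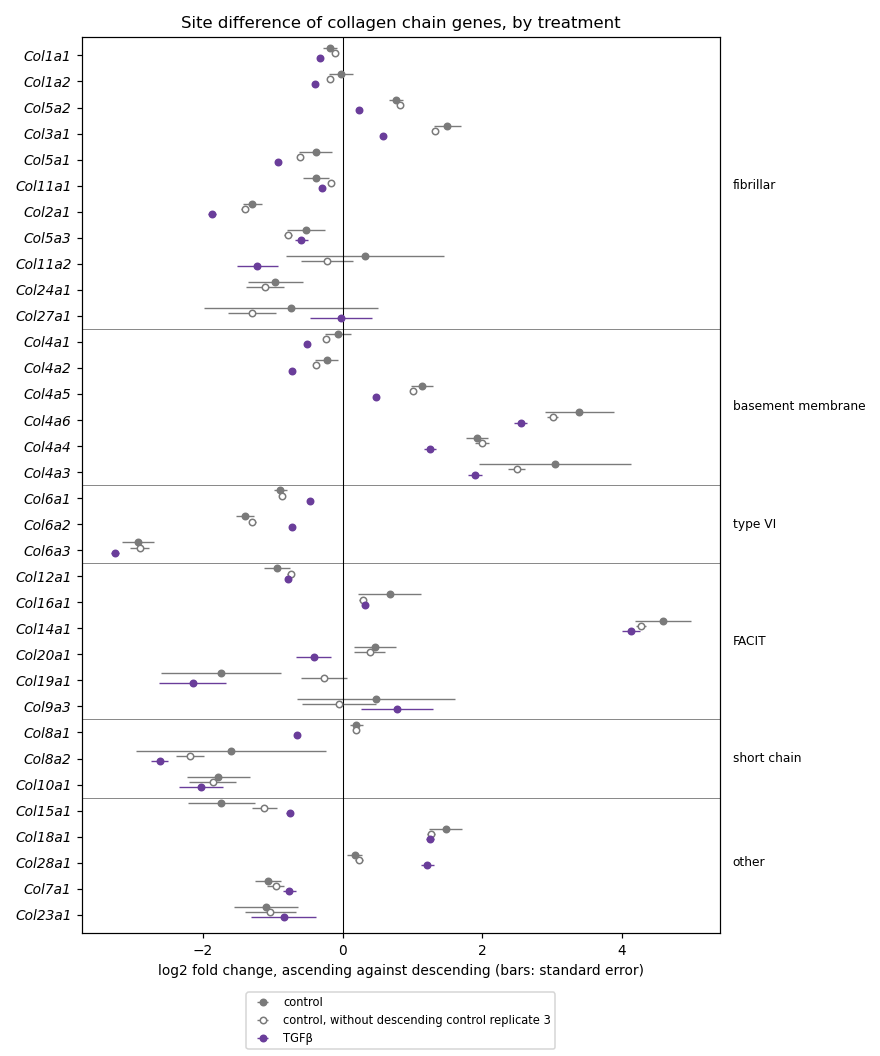
Log2 fold change of ascending against descending fibroblasts (horizontal axis, bars are standard errors) of the tested collagen chain genes, by class, in control cultures (grey, open circles without descending control replicate 3) and with TGFβ (purple). *Col14a1* and *Col4a6* lie furthest to the right and *Col6a3* furthest to the left in both treatments, and *Col8a1* lies on different sides of 0 in control and TGFβ.

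*Col14a1* had the largest site difference among the chains, at 4.59 (standard error 0.40, adjusted p = 0.00613) with and 4.27 (standard error 0.07, adjusted p = 9.53e-14) without replicate 3 in control cultures and 4.12 (standard error 0.13, adjusted p = 1.28e-20) with TGFβ, and all ascending libraries were above all descending ones. Next among the chains higher in ascending fibroblasts was *Col4a6*, at 3.39 (standard error 0.49, adjusted p = 0.0268) with and 3.01 (standard error 0.07, adjusted p = 2.74e-12) without replicate 3 in control and 2.55 (standard error 0.09, adjusted p = 5.2e-19) with TGFβ. Its head to head neighbour *Col4a5* had smaller differences of 1.14 (standard error 0.15, adjusted p = 0.021) with and 1.01 (standard error 0.04, adjusted p = 2.82e-10) without replicate 3 in control and 0.48 (standard error 0.04, adjusted p = 1.33e-11) with TGFβ. The ratio of the levels of *Col4a5* and *Col4a6* was 39.4, 38.2 and 105 in descending control and 58.7, 73.4 and 56.7 in descending TGFβ libraries. It was 10.2, 9.19 and 9.70 in ascending control and 14.0, 15.7 and 14.6 in ascending TGFβ libraries, so no ascending library reached a descending one.

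*Col4a4* differed by 1.92 (standard error 0.15, adjusted p = 0.00482) with and 2.00 (standard error 0.10, adjusted p = 2.73e-09) without replicate 3 in control and by 1.25 (standard error 0.08, adjusted p = 5.49e-13) with TGFβ. *Col4a3* was higher in ascending fibroblasts with TGFβ, by 1.89 (standard error 0.10, adjusted p = 7.38e-16), and its value in control was 3.04 (standard error 1.09, adjusted p = 0.309) with and 2.49 (standard error 0.12, adjusted p = 2.31e-09) without replicate 3. The 4 minor type IV chains were thus all higher in ascending fibroblasts with TGFβ, while *Col4a1* and *Col4a2* were lower, at -0.51 (standard error 0.04, adjusted p = 2.06e-12) and -0.72 (standard error 0.04, adjusted p = 6.19e-16). In control the values of the 2 major chains were -0.06 (standard error 0.19, adjusted p = 0.871) with and -0.24 (standard error 0.03, adjusted p = 8.06e-05) without replicate 3 for *Col4a1* and -0.23 (standard error 0.17, adjusted p = 0.568) with and -0.38 (standard error 0.04, adjusted p = 3.28e-06) without replicate 3 for *Col4a2*.

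Fibrillar chains differed in both directions. *Col3a1* was higher in ascending fibroblasts, by 1.50 (standard error 0.19, adjusted p = 0.0192) with and 1.32 (standard error 0.04, adjusted p = 6.19e-12) without replicate 3 in control and by 0.58 (standard error 0.04, adjusted p = 1.13e-13) with TGFβ. Its neighbour on chromosome 1, *Col5a2*, was also higher, by 0.77 (standard error 0.10, adjusted p = 0.0192) with and 0.83 (standard error 0.03, adjusted p = 2.11e-10) without replicate 3 in control and by 0.24 (standard error 0.03, adjusted p = 5.67e-07) with TGFβ. *Col2a1* was lower in ascending fibroblasts, at -1.29 (standard error 0.14, adjusted p = 0.0111) with and -1.40 (standard error 0.05, adjusted p = 7.42e-11) without replicate 3 in control and -1.87 (standard error 0.06, adjusted p = 3.35e-21) with TGFβ. *Col5a1* was lower with TGFβ, at -0.93 (standard error 0.04, adjusted p = 7.34e-18), and its control value was -0.38 (standard error 0.24, adjusted p = 0.521) with and -0.61 (standard error 0.03, adjusted p = 1.09e-08) without replicate 3. With TGFβ, *Col1a1* was lower in ascending fibroblasts at -0.33 (standard error 0.04, adjusted p = 1.79e-08) and *Col1a2* at -0.39 (standard error 0.03, adjusted p = 7.07e-11), and in control the values were -0.18 (standard error 0.10, adjusted p = 0.5) with and -0.11 (standard error 0.02, adjusted p = 0.00467) without replicate 3 for *Col1a1* and -0.02 (standard error 0.17, adjusted p = 0.951) with and -0.18 (standard error 0.02, adjusted p = 5.53e-05) without replicate 3 for *Col1a2*. *Col11a1* was lower with TGFβ at -0.29 (standard error 0.04, adjusted p = 2.58e-07), and its control value was -0.38 (standard error 0.18, adjusted p = 0.465) with and -0.17 (standard error 0.04, adjusted p = 0.00826) without replicate 3. *Col11a2* was lower with TGFβ at -1.22 (standard error 0.29, adjusted p = 0.00142), and its control value was 0.32 (standard error 1.13, adjusted p = 0.893) with and -0.22 (standard error 0.37, adjusted p = 0.701) without replicate 3. *Col5a3* was lower with TGFβ at -0.59 (standard error 0.09, adjusted p = 3.9e-06), and its control value was -0.53 (standard error 0.27, adjusted p = 0.485) with and -0.78 (standard error 0.06, adjusted p = 1.19e-07) without replicate 3. The control values of the low *Col24a1* and *Col27a1* were -0.96 (standard error 0.40, adjusted p = 0.394) with and -1.11 (standard error 0.27, adjusted p = 0.00628) without replicate 3 for *Col24a1* and -0.74 (standard error 1.24, adjusted p = 0.783) with and -1.30 (standard error 0.34, adjusted p = 0.0103) without replicate 3 for *Col27a1*.

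All 3 tested type VI chains were lower in ascending fibroblasts in both treatments. *Col6a3* differed by -2.93 (standard error 0.23, adjusted p = 0.00455) with and -2.90 (standard error 0.14, adjusted p = 1.5e-09) without replicate 3 in control and by -3.25 (standard error 0.06, adjusted p = 2.55e-26) with TGFβ. The differences of *Col6a2* were -1.39 (standard error 0.13, adjusted p = 0.00784) with and -1.29 (standard error 0.05, adjusted p = 2.82e-10) without replicate 3 in control and -0.73 (standard error 0.04, adjusted p = 2.84e-14) with TGFβ. Those of *Col6a1* were -0.89 (standard error 0.10, adjusted p = 0.0108) with and -0.87 (standard error 0.04, adjusted p = 5.63e-10) without replicate 3 in control and -0.46 (standard error 0.04, adjusted p = 1e-10) with TGFβ. Of all tested chains, *Col6a3* had the most negative site difference in both treatments.

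The 3 short chain genes were all lower in ascending fibroblasts with TGFβ, *Col8a2* at -2.62 (standard error 0.12, adjusted p = 8.89e-17), *Col10a1* at -2.02 (standard error 0.32, adjusted p = 6.58e-06) and *Col8a1* at -0.65 (standard error 0.03, adjusted p = 1.65e-15). In control, the *Col8a2* value was -1.60 (standard error 1.36, adjusted p = 0.614) with and -2.18 (standard error 0.20, adjusted p = 1.27e-06) without replicate 3, and that of *Col10a1* was -1.78 (standard error 0.45, adjusted p = 0.144) with and -1.86 (standard error 0.33, adjusted p = 0.000713) without replicate 3. *Col8a1* had 0.20 (standard error 0.09, adjusted p = 0.445) with and 0.19 (standard error 0.03, adjusted p = 0.00032) without replicate 3, so without replicate 3 it was higher in ascending fibroblasts in control and lower there with TGFβ. The level of *Col8a1* relative to *Col8a2* was 58.4 and 77.1 in descending control replicates 1 and 2, 64.6 to 81.4 in descending TGFβ, 268 to 413 in ascending control and 267 to 291 in ascending TGFβ libraries.

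*Col12a1* was lower in ascending fibroblasts with TGFβ, at -0.79 (standard error 0.04, adjusted p = 6.09e-15), and its control value was -0.94 (standard error 0.18, adjusted p = 0.0657) with and -0.74 (standard error 0.05, adjusted p = 7.38e-08) without replicate 3. *Col16a1* was higher with TGFβ, at 0.32 (standard error 0.04, adjusted p = 1.75e-07), and its control value was 0.67 (standard error 0.46, adjusted p = 0.545) with and 0.29 (standard error 0.05, adjusted p = 0.000746) without replicate 3. *Col18a1* was higher by 1.48 (standard error 0.23, adjusted p = 0.0354) with and 1.26 (standard error 0.05, adjusted p = 6.81e-10) without replicate 3 in control and by 1.25 (standard error 0.06, adjusted p = 1.31e-16) with TGFβ. For *Col28a1* the control value was 0.17 (standard error 0.11, adjusted p = 0.529) with and 0.23 (standard error 0.05, adjusted p = 0.00367) without replicate 3, and it was higher in ascending fibroblasts with TGFβ, at 1.21 (standard error 0.09, adjusted p = 5.01e-12). *Col15a1* was lower with TGFβ, at -0.76 (standard error 0.04, adjusted p = 1.89e-14), where the 3 ascending libraries stood at 67.4, 71.5 and 68.1 and the 3 descending ones at 117, 117 and 117 normalized CPM. In control the *Col15a1* value was -1.73 (standard error 0.48, adjusted p = 0.185) with and -1.12 (standard error 0.18, adjusted p = 0.000274) without replicate 3, and ascending control replicate 2, the library with the highest *Lyz2*, had the highest *Col15a1* of its group. *Col19a1* was lower with TGFβ, at -2.15 (standard error 0.47, adjusted p = 0.000546), and its control value was -1.74 (standard error 0.86, adjusted p = 0.475) with and -0.26 (standard error 0.33, adjusted p = 0.596) without replicate 3. *Col7a1* was lower in ascending fibroblasts, at -1.07 (standard error 0.19, adjusted p = 0.0483) with and -0.96 (standard error 0.12, adjusted p = 4.31e-05) without replicate 3 in control and -0.76 (standard error 0.09, adjusted p = 8.19e-08) with TGFβ, and no ascending library reached a descending control library. *Col23a1* had -1.09 (standard error 0.46, adjusted p = 0.404) with and -1.03 (standard error 0.36, adjusted p = 0.0427) without replicate 3 in control and -0.84 (standard error 0.46, adjusted p = 0.164) with TGFβ, where it had -1.53 (standard error 0.58, adjusted p = 0.0446) without ascending TGFβ replicate 2. The low *Col20a1* had 0.47 (standard error 0.30, adjusted p = 0.528) with and 0.39 (standard error 0.22, adjusted p = 0.208) without replicate 3 in control and -0.41 (standard error 0.25, adjusted p = 0.207) with TGFβ, where it had -0.71 (standard error 0.27, adjusted p = 0.0473) without ascending TGFβ replicate 1. *Col9a3* was not DE between the sites, with 0.48 (standard error 1.14, adjusted p = 0.844) with and -0.05 (standard error 0.52, adjusted p = 0.955) without replicate 3 in control and 0.78 (standard error 0.51, adjusted p = 0.26) with TGFβ.

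Markers of other cells also differed between the sites. Summed over 5 mesothelial markers, normalized CPM was 23.2 to 25.1 in descending control, 26.4 to 28.9 in descending TGFβ, 85.3 to 101 in ascending control and 48.5 to 57.9 in ascending TGFβ libraries, and *Lrrn4* was at 0 in all descending libraries. *Upk3b* was at 34.9, 29.0 and 37.0 in ascending control and at 22.8, 14.7 and 17.5 in ascending TGFβ libraries, against at most 1.60 in any descending library. With TGFβ in ascending fibroblasts 3 of the 5 markers were DE, all lower, against 27.6% of all genes lower. The 10 chains higher in ascending fibroblasts with TGFβ included the 7 that were higher there in control. Of these 10, *Col14a1*, *Col4a6*, *Col4a4*, *Col4a5*, *Col3a1*, *Col18a1* and *Col28a1* fell with TGFβ in ascending fibroblasts, and *Col4a3*, *Col5a2* and *Col16a1* rose. The part of such cells in these values was not tested. Summed over 6 macrophage markers, normalized CPM was 25.5 to 47.2 in descending control, 14.0 to 27.0 in descending TGFβ, 54.4 to 357 in ascending control and 29.6 to 42.3 in ascending TGFβ libraries. All 6 fell with TGFβ in ascending fibroblasts, with a median log2 fold change of -1.97. In descending fibroblasts 0 of 5 tested were DE, and 3 of 6 fell without replicate 3, while between the sites with TGFβ 3 of 6 were higher in ascending fibroblasts. Over all genes, 8.07% were DE in descending fibroblasts and 26.3% were lower there without replicate 3. Between the sites with TGFβ 18.1% were higher in ascending fibroblasts. The part of macrophages in the chains that fell was not tested. Summed over 4 adipocyte markers it was 75.5 to 109, 25.0 to 45.0, 4.08 to 14.6 and 2.19 to 2.60 in the same order of groups, none of the 4 being at 0 throughout a group. Summed over 4 Schwann cell markers it was 14.7 to 24.7, 10.8 to 12.1, 21.4 to 25.9 and 14.9 to 15.7, with *Sox10* at 0 in all descending libraries. Summed over 7 smooth muscle markers it was 2511 to 2556 in descending control and 7960 to 8381 in descending TGFβ libraries, and 1582 to 1696 in ascending control and 5108 to 5194 in ascending TGFβ libraries, so the sum was higher with TGFβ at both sites, as were the chains that rose. The markers did not all move this way. Over all genes, 55.8% were DE with TGFβ in ascending fibroblasts, 8.07% in descending ones and 52.9% there without replicate 3. In ascending fibroblasts *Acta2*, *Cnn1*, *Tagln*, *Lmod1* and *Smtn* rose, *Myh11* fell by 0.63 and *Des* by 1.35 on the log2 scale, and the median over the 7 was 0.25. In descending fibroblasts *Acta2* and *Cnn1* rose and none fell, with a median of 0.38, and without replicate 3 all but *Des*, which fell by 1.37, rose, with a median of 0.77. Their part in the collagen results was not tested. In bulk samples, fewer cells of a type and less RNA per cell cannot be told apart.

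The third question was whether the response to TGFβ differed between the sites, tested as the interaction of site and treatment. Here a value above 0 means that the log2 fold change was the more positive one at the ascending site. Of 34 tested chains, *Col28a1* and *Col6a2* had a positive and *Col8a1* and *Col5a2* a negative interaction at an adjusted p under 0.05, against 0.806% of all genes (0.321% positive and 0.485% negative). Without descending control replicate 3, 3 chains were positive and 14 negative, against 13.5% of all genes (6.07% and 7.40%), and the 4 chains DE with the library were among them in the same direction. The median interaction over the tested chains was -0.40 with the library and -0.24 without it, against -0.06 and 0.0057 over all genes tested. The count without it is one of the leave-one-out values, whose range over the other 11 libraries was 1 to 3 chains, with 1 without ascending TGFβ replicate 3. Over all genes this range was 25 to 131, against 118 with all libraries kept. With 1 of these 11 left out, *Col8a1* was DE in all 11 fits, *Col28a1* in 10, *Col6a2* in 1 and *Col5a2* in 0.

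**Figure D5:**
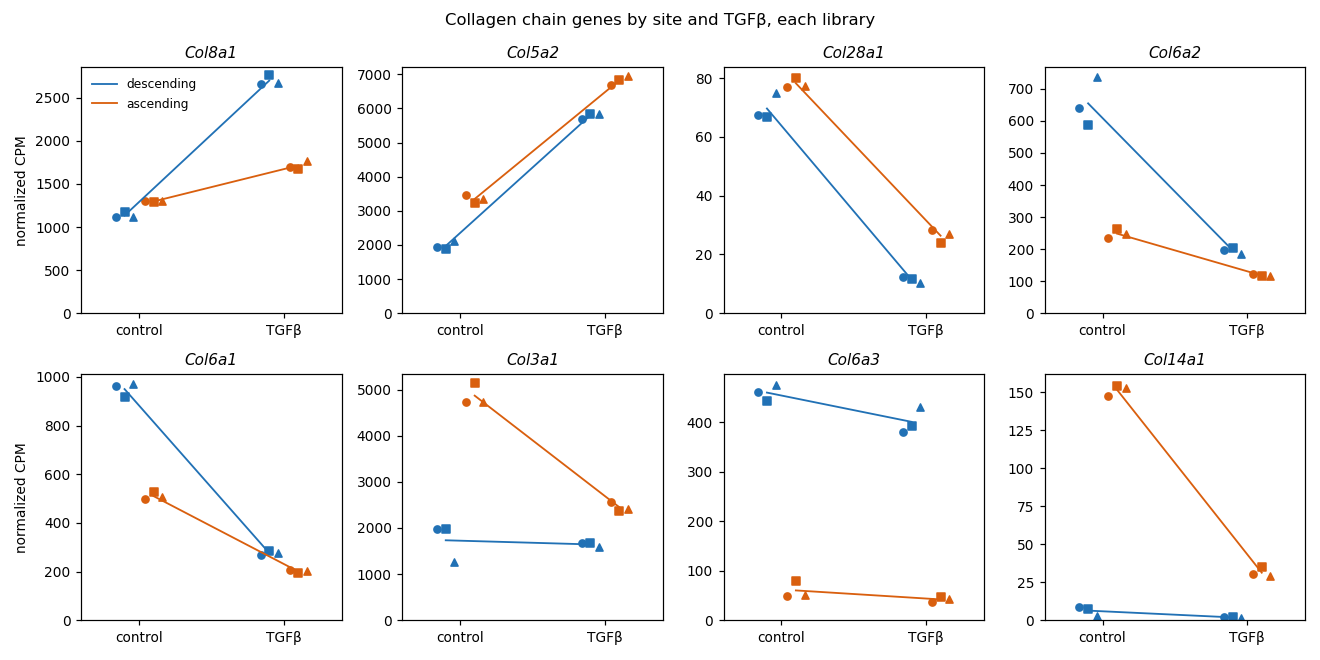
Normalized CPM of 8 collagen chain genes in control and TGFβ cultures of descending (blue) and ascending (orange) fibroblasts. Points are libraries (circle, square and triangle for replicates 1, 2 and 3) and lines join the group means. The slope of *Col8a1* was steeper in descending fibroblasts, *Col28a1* and *Col6a2* fell further there on the log2 scale, and *Col14a1* and *Col6a3* kept the site with the higher values in both treatments.

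*Col8a1* had the smallest adjusted p of the 4. As its library values above show, the descending TGFβ libraries exceeded every other library. The interaction of *Col8a1* was -0.85 (standard error 0.09, adjusted p = 0.00409) with and -0.84 (standard error 0.05, adjusted p = 9.61e-12) without descending control replicate 3. For *Col5a2*, which rose at both sites from a lower control value in descending fibroblasts, it was -0.53 (standard error 0.10, adjusted p = 0.0339) with and -0.58 (standard error 0.04, adjusted p = 1.45e-09) without descending control replicate 3. For *Col28a1*, which fell at both sites and further in descending fibroblasts, it was 1.04 (standard error 0.14, adjusted p = 0.0103) with and 0.98 (standard error 0.10, adjusted p = 1.48e-07) without descending control replicate 3. For *Col6a2* it was 0.67 (standard error 0.13, adjusted p = 0.0491) with and 0.57 (standard error 0.07, adjusted p = 1.81e-06) without descending control replicate 3, again with the larger fall in descending fibroblasts. *Col6a1* had a value of 0.43 (standard error 0.09, adjusted p = 0.0647) with and 0.41 (standard error 0.06, adjusted p = 7.99e-06) without descending control replicate 3.

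By edgeR, *Col6a1* and 12 chains with negative values were DE for the interaction without the library and not with it. The 12 were all 6 type IV chains, the fibrillar *Col1a1*, *Col1a2*, *Col2a1*, *Col3a1* and *Col5a1*, and *Col19a1*. Other tests that kept all libraries called some of these too. The DESeq2 Wald test called *Col3a1* (adjusted p = 0.0014), *Col4a5* (adjusted p = 0.0017), *Col4a4* (adjusted p = 0.0157), *Col2a1* (adjusted p = 0.0281) and *Col6a1* (adjusted p = 7.83e-06). limma voom with sample quality weights called *Col6a1* and 11 of the 12, all but *Col4a3*. Its weights can lower the part of a library that stands apart. For the interaction that test called 1979 genes, against 2022 by edgeR without the library and 118 with it. The value of *Col3a1* was -0.91 (standard error 0.21, adjusted p = 0.0857) with and -0.73 (standard error 0.05, adjusted p = 8.55e-10) without descending control replicate 3. That of *Col4a5*, which without that library rose in descending and fell in ascending fibroblasts, was -0.65 (standard error 0.16, adjusted p = 0.108) with and -0.52 (standard error 0.05, adjusted p = 1.73e-07) without descending control replicate 3. The value of *Col4a4*, which had the same pattern without that library, was -0.67 (standard error 0.17, adjusted p = 0.137) with and -0.74 (standard error 0.14, adjusted p = 0.000455) without descending control replicate 3. *Col4a1* and *Col4a2* had -0.27 (standard error 0.05, adjusted p = 0.00106) and -0.34 (standard error 0.05, adjusted p = 7.78e-05) without the library, and -0.45 (standard error 0.20, adjusted p = 0.505) and -0.49 (standard error 0.18, adjusted p = 0.362) with it. For *Col4a3* and *Col4a6* the values were -0.59 (standard error 0.17, adjusted p = 0.022) and -0.45 (standard error 0.13, adjusted p = 0.0178) without it, and -1.12 (standard error 0.93, adjusted p = 0.645) and -0.82 (standard error 0.48, adjusted p = 0.568) with it.

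*Col2a1* and *Col5a1* had interactions of -0.46 (standard error 0.09, adjusted p = 0.000634) and -0.32 (standard error 0.06, adjusted p = 0.000326) without the library, and -0.57 (standard error 0.17, adjusted p = 0.204) and -0.54 (standard error 0.26, adjusted p = 0.516) with it. The type I chains had the smallest of these values, -0.22 (standard error 0.05, adjusted p = 0.00462) for *Col1a1* and -0.21 (standard error 0.04, adjusted p = 0.00158) for *Col1a2* without the library, and -0.14 (standard error 0.11, adjusted p = 0.622) and -0.37 (standard error 0.18, adjusted p = 0.532) with it. *Col19a1*, which was highest in that library, had -1.88 (standard error 0.58, adjusted p = 0.0304) without it and -0.43 (standard error 0.98, adjusted p = 0.838) with it. *Col11a1* and *Col12a1*, which rose at both sites, and *Col14a1*, which fell in ascending fibroblasts, had interactions of 0.09 (standard error 0.19), 0.16 (standard error 0.19) and -0.46 (standard error 0.41) with the library and of -0.11 (standard error 0.06), -0.04 (standard error 0.08) and -0.14 (standard error 0.19) without it, none of them DE.

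The balance of the type I chains also moved with TGFβ. The size of their ratio rests on the exon lengths used and does not give the proportion of the chains. Only its differences between libraries are read here. The ratio of the levels of *Col1a1* and *Col1a2* was 2.16, 2.16 and 3.64 in descending control and 2.93, 3.06 and 3.10 in descending TGFβ libraries. It was 2.24, 2.29 and 2.29 in ascending control and 3.25, 3.21 and 3.07 in ascending TGFβ libraries. Descending control replicate 3 had the highest ratio of all. Without it, the ranges of control and TGFβ libraries did not overlap at either site.

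The products of other genes modify, process, cross-link and bind collagen chains. The counts below stand beside 55.8% of all genes DE for TGFβ in ascending fibroblasts, 8.07% in descending fibroblasts, 52.9% there without replicate 3, 36.3% between the sites with TGFβ, and 0.806% for the interaction (13.5% without replicate 3). Of 17 tested genes for prolyl and lysyl hydroxylases and collagen chaperones, 14 rose and 2 fell with TGFβ in ascending fibroblasts, with a median log2 fold change of 0.45. In descending fibroblasts 3 rose and 1 fell, and 13 rose and 2 fell without replicate 3, with medians of 0.45 and 0.61. *Fkbp10* and *P3h1*, which act on collagen in the endoplasmic reticulum, rose by 0.96 and 0.96 in ascending fibroblasts, while *P3h2*, a prolyl 3-hydroxylase known to act on type IV collagen, fell by 1.17. All 5 lysyl oxidase genes, whose products cross-link collagen and elastin, rose in ascending fibroblasts (*Lox*, *Loxl1*, *Loxl2*, *Loxl3* and *Loxl4*, with a median of 1.34). In descending fibroblasts 3 of 5 rose, and all 5 without replicate 3, with medians of 1.59 and 1.47.

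Of 6 tested genes for propeptide proteases and their enhancers, 2 rose and 3 fell in ascending fibroblasts. *Tll1*, a protease that removes C-terminal propeptides, rose by 1.60, and *Adamts2*, which removes N-terminal ones, fell by 0.75. In descending fibroblasts 1 of 6 rose and 1 fell, and 1 of 7 rose and 4 fell without replicate 3. Of 7 collagen receptor genes, 3 rose and 2 fell in ascending fibroblasts, *Itga11*, the integrin chain that binds fibrillar collagen, by 2.67, while *Ddr2*, a collagen-binding receptor kinase, fell by 0.58. In descending fibroblasts 1 rose and 1 fell, and 4 rose and 2 fell without replicate 3. Between the sites with TGFβ, 4 of the 17 hydroxylase and chaperone genes were higher and 7 lower in ascending fibroblasts, as were 2 and 2 of the 5 cross-linking genes, 3 and 2 of the 6 propeptide genes and 1 and 3 of the 7 receptor genes. For the interaction, 1 of the 17 hydroxylase and chaperone genes was DE by edgeR. *P4ha1*, which encodes the catalytic chain of a prolyl 4-hydroxylase, was DE at -0.49 (standard error 0.09, adjusted p = 0.0316), and without replicate 3 it had -0.46 (standard error 0.05, adjusted p = 1.32e-07). Without replicate 3, 1 of the 17 was positive and 4 negative, as were 1 and 2 of the 5 cross-linking genes, 2 and 2 of 7 propeptide genes and 1 and 4 of the 7 receptor genes.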

How the data were processed

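RNA of 12 cultures was sequenced by the authors. Per the labels, reads were checked with FastQC, aligned with STAR to mm10 and counted per gene with featureCounts, and the deposited values are raw counts. Tool versions and the strand setting are not given in the sources used here. The collagen chain genes and all gene lists were chosen with earlier results of these data known.

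Counts were tested with edgeR 4.0.16 (R 4.3.3), using the quasi-likelihood F test, TMM scaling, filterByExpr (minimum count 10, minimum total 15) and Benjamini-Hochberg adjustment over all genes tested, with 0.05 as the threshold. Each pairwise comparison used its 6 libraries, and the interaction used all 12. The standard error is the log2 fold change divided by the root of F. The methods name DESeq2, which was run (1.42.0) as an alternative, with limma 3.58.1 and other filters, scalings and fits. Fits were tested on simulated counts with 200 changed genes. The simulated counts had the same spread for all genes and no library that stood apart. They therefore do not show how the fits handle descending control replicate 3. Levels divide normalized CPM by the exon length of each gene (GRCm38 annotation). Ratios of *Col1a1* to *Col3a1* and of the minor type IV chains were added after the data were seen.

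Library values are given for the 3 members of each class with the highest level, those DE for the interaction, and the 3 per direction and pairwise comparison with the smallest adjusted p.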

Additional observations from a re-analysis of the deposited data

Results flagged for a closer look

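For 4 collagen chain genes the response to TGFβ differed between ascending and descending fibroblasts by the interaction term itself (edgeR's quasi-likelihood test, adjusted over all genes tested). *Col8a1* had -0.85 (standard error 0.09, adjusted p = 0.00409), having risen by 0.40 on the log2 scale in ascending and by 1.24 in descending fibroblasts. *Col5a2* had -0.53 (standard error 0.10, adjusted p = 0.0339), with rises of 1.02 and 1.55. *Col28a1* had 1.04 (standard error 0.14, adjusted p = 0.0103), having fallen by 1.57 in ascending and by 2.62 in descending fibroblasts. *Col6a2* had 0.67 (standard error 0.13, adjusted p = 0.0491), having fallen by 1.08 and 1.75. Without descending control replicate 3 the values were -0.84, -0.58, 0.98 and 0.57 in the same order, all 4 DE. With 1 of the other 11 libraries left out, the signs of all 4 were kept, and *Col8a1* was DE in every fit (adjusted p = 0.00959 to 0.0251). *Col28a1* was DE in 10 of the 11 (adjusted p = 0.0173 to 0.0509), the exception being that without ascending TGFβ replicate 3. *Col6a2* was DE in 1, that without descending control replicate 2 (adjusted p = 0.0396 to 0.175 over the 11), and *Col5a2* in none (adjusted p = 0.061 to 0.14). With the replicate block or with no filter on low counts, *Col8a1* and *Col28a1* were DE and the other two were not, and with DESeq2's size factors in edgeR *Col6a2* was not.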

How the results depend on the processing

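When single libraries were left out, 27 to 29 chains were DE for TGFβ in ascending fibroblasts (7146 to 7427 genes in all), 7 to 28 for TGFβ in descending fibroblasts (213 to 7576), 0 to 30 for the sites in control (33 to 4631), 29 to 30 for the sites with TGFβ (4340 to 4656) and 1 to 17 for the interaction (25 to 2022). The upper ends of the descending, control and interaction ranges were those without descending control replicate 3. With any other library left out, the ranges were 7 to 9 chains (213 to 474 genes), 0 to 4 (33 to 108) and 1 to 3 (25 to 131). Where no chain was DE between the sites in control by edgeR, without ascending control replicate 1 or 3, 1061 and 1062 genes had an unadjusted p under 0.05.

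With all 12 libraries in 1 fit, 17 chains and 2338 genes were DE for TGFβ in ascending fibroblasts, 20 and 3570 for TGFβ in descending fibroblasts, and 19 and 1106 for the sites with TGFβ, and 1545 genes were DE for the sites in control. The DESeq2 Wald test gave 17 chains and 2531 genes for TGFβ in descending fibroblasts, 1151 genes for the sites in control, and 9 chains and 497 genes for the interaction. limma voom with sample quality weights gave 28 chains and 7335 genes, 30 and 4392, and 16 and 1979 for these 3 comparisons. Without a filter on low counts, 2 chains and 56 genes were DE for the interaction. The cause of these changes was not tested.

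Replicate numbers gave no sign of pairing between the groups, which does not show whether same-numbered cultures shared animals. Deviations of same-numbered libraries correlated at -0.026 to 0.0878, and a library correlated best with its own number in 13 of 36 checks. With the replicate block, 4 chains and 95 genes were DE for TGFβ in descending fibroblasts, 2 and 50 for the interaction, and 0 and 0 by edgeR for the sites in control, where 16 chains and 1235 genes had an unadjusted p under 0.05 and DESeq2 without the block called 1151 genes.

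Some values changed sign when 1 library was left out. Over these fits, *Col3a1* had -0.26 to 0.024 for TGFβ in descending fibroblasts. For the sites in control, *Col1a2* had -0.18 to 0.072, *Col4a1* had -0.24 to 0.067 and *Col27a1* had -1.30 to 0.078, and *Col27a1* had 0.11 with the replicate block. *Col19a1* had -1.88 to 0.011 for the interaction. In each, the lower end was the value without descending control replicate 3.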

Other observations

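Single libraries stood apart in some chains. In descending control replicate 3, *Col15a1* was at 309.9 normalized CPM against 128.0 and 113.1 in the other descending controls, and *Col19a1* had 130 counts against 30 and 39. *Col4a3*, *Col8a2*, *Col9a3*, *Col11a2* and *Col27a1* were at 0 counts in it. In ascending control replicate 2, *Col6a3* was at 79.8 normalized CPM against 49.2 and 51.2 in the others of its group, and *Col15a1* at 77.7 against 40.4 and 47.4.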
